A study of Mus musculus with 8 samples.

Results

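The genes described here encode 10 receptors through which neutrophils sense chemoattractants and position themselves: Cxcr2, Cxcr4, Ccr1, Fpr1, Fpr2, C5ar1, C3ar1, Ltb4r1, Ptafr and S1pr4. They were chosen by name, and every non-control probe whose RefSeq transcript belongs to one of them was taken. This gave 1 probe per gene, 10 genes among the 21251 tested. The RNA came from the Ly6G-positive fraction of bone marrow, flushed from tibias and femurs and sorted with magnetic beads, in 2 genotypes, wild type (WT) and ATF3 knockout (ATF3 KO). ATF3 belongs to the ATF/CREB family of DNA-binding proteins and is made in response to stress. Both groups had a C57BL/6 background, and the labels give neither the age of the animals nor the construction of the knockout allele. There were 4 single-colour arrays per genotype. The design text has the RNA isolated at once after sorting, whereas the description field of 7 of the 8 samples speaks of culture in methylcellulose with 4-OHT, and this conflict was not resolved. The labels do not say that the 4 samples of a group came from separate animals, so the errors and p-values measure the spread between these samples. Per its title, the series is about how neutrophils migrate.

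All 10 are G protein-coupled receptors, many of which signal through inhibitory G proteins. In neutrophils, ligand binding frees G protein subunits that activate phosphoinositide 3-kinase gamma and exchange factors for Rac, and the cell polarises towards the source of the ligand. In bone marrow, CXCR4 holds neutrophils back through the stromal chemokine CXCL12, while CXCR2, bound by CXCL1 and CXCL2, drives their release into blood. Receptors for end-point signals, such as formylated bacterial peptides and complement C5a, act close to the site of infection, and leukotriene B4 relays the signal from cell to cell.

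The levels below are log2 of the background-subtracted probe signal relative to the 75th percentile of all probes on the same array. Over the 4 arrays of a group that percentile was 186 ± 33.8 (SD) for WT and 141 ± 21.3 for ATF3 KO, and ATF3 KO replicate 4 was the dimmest array, at 113. The file headers put the 8 arrays on a single slide and in a single scan. WT filled one row of it and ATF3 KO the other, which means that effects of row and of genotype cannot be told apart here. The probe for the deleted gene, Atf3, read 0.73 ± 0.07 in WT (SD, n = 4) and, without overlap, more in ATF3 KO, at 1.24 ± 0.27. Since the sources used here do not place that probe relative to the deletion, it does not check the genotype labels. Neutrophil markers were bright on every array: the signals of 11 of 12 listed markers summed to between 13.3 and 13.7 in WT and between 13.6 and 13.9 in ATF3 KO on the same log2 scale. The listed marker not among them was Ly6g, to which no probe was matched through the table used here.

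The 10 receptors fell into 3 tiers of probe signal, which were the same in both genotypes. Ltb4r1, Fpr2, Fpr1 and Cxcr2 gave the highest signals, at least 6.97 on every array. Cxcr4, C5ar1, S1pr4 and Ptafr formed a middle tier, between 2.45 and 4.31. Ccr1 and C3ar1 lay below the 75th percentile on every array, between -2.29 and -0.57, yet every receptor was well above background on all 8 arrays. The brightness of a probe depends on its own binding as well as on the RNA, so this is an order of probe signals, and the distances between receptors are not ratios of transcript numbers. The mean gap between the bottom of the upper tier and the top of the middle tier was 3.06 in WT and 3.005 in ATF3 KO, against a largest SD of either neighbour of 0.14 and 0.18. The gap from Ptafr down to Ccr1 was 3.73 in WT and 3.72 in ATF3 KO.

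**Figure D1:**
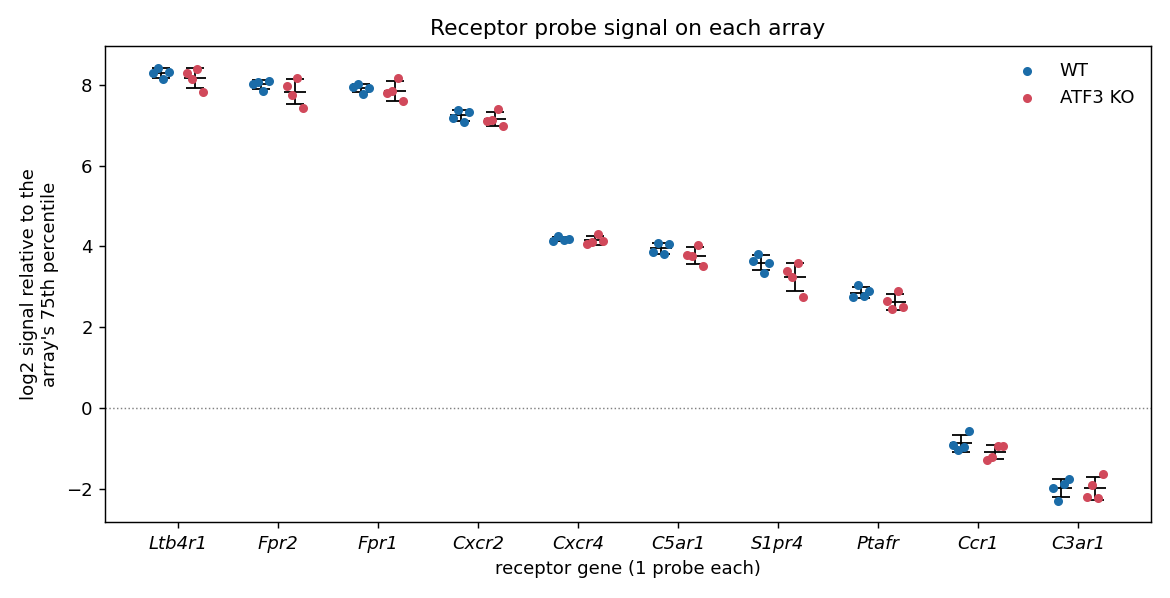
Log2 probe signal of the 10 receptors relative to the array's 75th percentile (vertical axis, log2) for each array, WT in blue and ATF3 KO in red, with the mean and SD of 4 arrays. Ltb4r1, Fpr2, Fpr1 and Cxcr2 lie between 6.97 and 8.43, Cxcr4 to Ptafr between 2.45 and 4.31, and Ccr1 and C3ar1 below 0, and the genotypes overlap for every receptor.

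No receptor passed the test between the genotypes. For Ptafr and Ccr1 the log2 difference, -0.23 for each, was larger than the SD of either group (at most 0.20 and 0.21 in turn). Of the 10, 0 passed limma's threshold of an adjusted p under 0.05, where 0.447% of all genes did, and 0 had an unadjusted limma p under 0.05, where 23.9% of all genes did. The WT and ATF3 KO values overlapped for all 10 receptors, whereas 15.1% of all genes had groups that did not overlap. The adjusted p of the receptors ran from 0.249 for S1pr4 to 0.975 for C3ar1. The 95% confidence intervals of the fold, ATF3 KO over WT, all included 1. They were narrowest for Cxcr4, from 0.842 to 1.13, and reached lowest for S1pr4, at 0.592, and highest for C3ar1, at 1.29, so the size of change that could be seen differed between receptors. The log2 difference was below 0 for all 10, as it was for 65.5% of all genes and for 83.3% of the 7080 genes with a mean level over 2. The median over the receptors was -0.16, against -0.11 over all genes and -0.16 over the genes with a mean level over 2, where 8 of the receptors lie, and 6 of the 10 lay below the median of all genes, which by construction holds for 50% of genes.

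**Figure D2:**
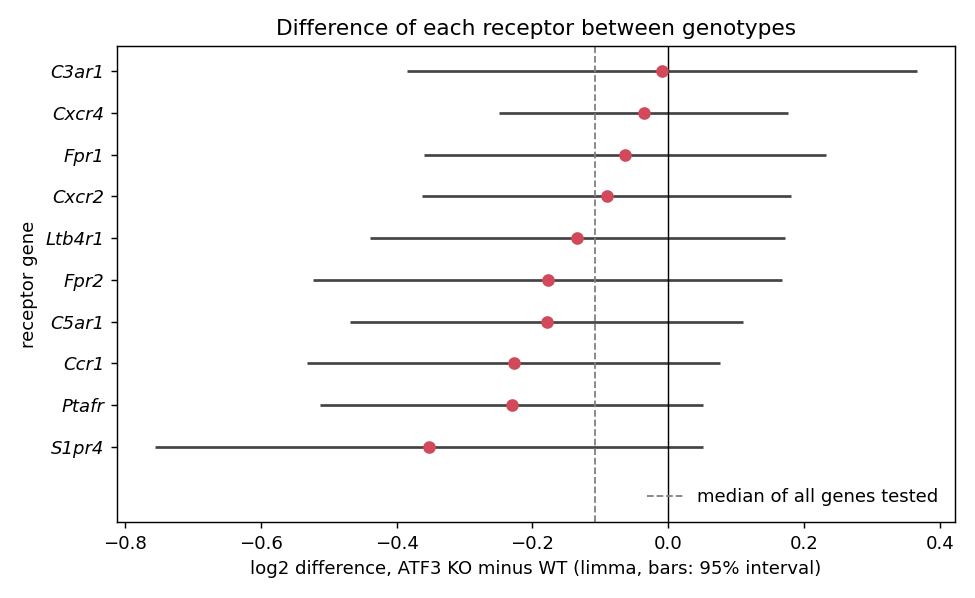
Log2 difference of each receptor, ATF3 KO minus WT (horizontal axis), with its 95% confidence interval from limma. The solid line marks 0 and the dashed line the median of all genes at -0.11. All 10 points lie below 0, from -0.35 for S1pr4 to -0.01 for C3ar1, and all 10 intervals include both lines.

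Cxcr2 (transcript NM_009909, chromosome 1) encodes the receptor for CXCL1, CXCL2 and related chemokines that release neutrophils from marrow. Its log2 signal on WT replicates 1 to 4 was 7.18, 7.38, 7.08 and 7.34, and on ATF3 KO replicates 1 to 4 it was 7.11, 7.13, 7.40 and 6.97. The highest and the lowest of the 8 values were both in ATF3 KO arrays. The log2 difference was -0.09 (SE 0.12, 95% interval -0.36 to 0.18, limma adjusted p = 0.63). With 1 array left out it ran from -0.17, without ATF3 KO replicate 3, to -0.031, without ATF3 KO replicate 4. Leaving out WT replicate 2, 3 or 4 gave -0.046, -0.14 and -0.058 in turn. Relative to the median of all genes it was 0.02, so its sign depends on whether the shift of all genes is taken off.

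Cxcr4 (NM_009911, chromosome 1), the receptor for CXCL12 that retains neutrophils in marrow, varied least. It read 4.13, 4.26, 4.16 and 4.18 in WT and 4.06, 4.10, 4.31 and 4.12 in ATF3 KO. The SD over 4 arrays was 0.05 in WT and 0.11 in ATF3 KO. The difference was -0.04 (SE 0.09, 95% interval -0.25 to 0.18, limma adjusted p = 0.812), and with 1 array left out it ran from -0.091, without ATF3 KO replicate 3, to -0.0056, without ATF3 KO replicate 1. Its sign turned to 0.15 with the deposited log2 table (limma adjusted p = 0.233) and to 0.11 with quantile normalization (limma adjusted p = 0.428). Cxcr2 and Cxcr4 lie on the same chromosome as Atf3, with start sites 117 and 62.6 Mb from that of Atf3 in GRCm38.p6.

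Because these receptors pull in opposite directions in marrow, their signals were also set against each other within each array, which does not depend on the scaling between arrays. Cxcr2 minus Cxcr4 was 3.04, 3.12, 2.92 and 3.15 in WT and 3.05, 3.02, 3.09 and 2.85 in ATF3 KO. The means, 3.06 ± 0.10 and 3.005 ± 0.11 (SD, n = 4), differed by -0.05, less than either SD. The groups overlapped.

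The formyl peptide receptor genes Fpr1 (NM_013521) and Fpr2 (NM_008039), which sense bacterial and mitochondrial peptides, are neighbours on chromosome 17 and are read in opposite directions, with start sites 3885 bases apart in GRCm38.p6. Fpr1 read 7.94, 8.02, 7.78 and 7.92 in WT and 7.79, 7.85, 8.17 and 7.59 in ATF3 KO. Fpr2 read 8.03, 8.06, 7.85 and 8.10 in WT and 7.98, 7.76, 8.16 and 7.44 in ATF3 KO. For both genes ATF3 KO replicate 3 was the highest and ATF3 KO replicate 4 the lowest of the 8 arrays. The difference was -0.06 for Fpr1 (SE 0.13, limma adjusted p = 0.762) and -0.18 for Fpr2 (SE 0.15, limma adjusted p = 0.456). Without ATF3 KO replicate 4 these became 0.02 and -0.05.

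These genes were also the only neighbours in the order that the arrays did not keep. Fpr2 was above Fpr1 on all 4 WT arrays and on 1 of the 4 ATF3 KO arrays. Within arrays, Fpr1 minus Fpr2 was -0.09 ± 0.06 (SD, n = 4) for WT and 0.02 ± 0.15 for ATF3 KO, and the groups overlapped. The genes are close relatives, and whether their probes also bind each other's transcripts was not tested. Every other adjacent pair kept its order on all 8 arrays.

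Ltb4r1 (NM_008519, chromosome 14), the high-affinity receptor for leukotriene B4, gave the highest signal on every array. It read 8.30, 8.43, 8.14 and 8.33 in WT and 8.29, 8.15, 8.39 and 7.83 in ATF3 KO. Only ATF3 KO replicate 4 fell below the WT range. The difference was -0.13 (SE 0.14, 95% interval -0.44 to 0.17, limma adjusted p = 0.522). Leaving out ATF3 KO replicate 4 took it to -0.02. Ptafr (NM_001081211, chromosome 4), the receptor for platelet-activating factor, read 2.74, 3.03, 2.77 and 2.89 in WT and 2.66, 2.45, 2.90 and 2.50 in ATF3 KO. Of its ATF3 KO arrays, 3 lay below every WT array and replicate 3 lay above 3 of the WT arrays. The difference was -0.23 (SE 0.13, 95% interval -0.51 to 0.05, limma adjusted p = 0.271). With the deposited log2 table it was 0.005 (limma adjusted p = 0.977).

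The complement receptors stood far apart in signal. C5ar1 (NM_001173550, chromosome 7), the receptor for C5a, read 3.87, 4.07, 3.80 and 4.05 in WT and 3.78, 3.76, 4.04 and 3.51 in ATF3 KO. Only ATF3 KO replicate 3 reached into the WT range. The difference was -0.18 (SE 0.13, limma adjusted p = 0.375), and -0.094 without ATF3 KO replicate 4. C3ar1 (NM_009779, chromosome 6), the receptor for C3a, read -1.98, -2.29, -1.88 and -1.77 in WT and -2.21, -1.89, -2.23 and -1.62 in ATF3 KO. It had the dimmest probe of the 10, with a processed signal of 46.8 ± 5.06 (SD, n = 4) for WT and 35.5 ± 4.95 for ATF3 KO. The log2 difference was -0.01 (SE 0.17, 95% interval -0.38 to 0.37, limma adjusted p = 0.975), the widest interval but 1, after S1pr4, and its sign turned in 7 of 20 alternatives.

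Ccr1 (NM_009912, chromosome 9), a receptor for CCL3 and CCL5, was the other dim member. It read -0.91, -1.04, -0.96 and -0.57 in WT and -1.28, -1.21, -0.95 and -0.94 in ATF3 KO. The lowest values were ATF3 KO replicates 1 and 2, and WT replicate 4 was the highest. The difference was -0.23 (SE 0.14, limma adjusted p = 0.301), and -0.13 without WT replicate 4. It stayed below that of all genes in each of the 20 alternatives, from -0.24 to -0.01 relative to their median. Some of the 20 cannot move this relative value and repeat the main one.

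S1pr4 (NM_010102, chromosome 10), a receptor for sphingosine 1-phosphate found on blood cells, had the largest difference and the largest spread. It read 3.64, 3.81, 3.35 and 3.58 in WT and 3.39, 3.24, 3.59 and 2.75 in ATF3 KO. ATF3 KO replicates 1 and 3 lay within the WT range, and replicates 2 and 4 lay below it. The difference was -0.35 (SE 0.18, 95% interval -0.76 to 0.05, limma adjusted p = 0.249). The SD was 0.36 in ATF3 KO against 0.19 in WT. Without ATF3 KO replicate 4 the difference was -0.19 (limma adjusted p = 0.459), and with normexp background correction it was -0.48 (limma adjusted p = 0.108). It was the receptor farthest below the median of all genes, at -0.24 relative to it. Set against Cxcr2 within each array, S1pr4 differed by -0.26 between the genotypes, and the groups overlapped there too.

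Many receptors deviated together on the same array. The number of the 10 above their own mean was 8, 8, 3 and 10 on WT replicates 1 to 4. On ATF3 KO replicates 1 to 4 it was 2, 1, 9 and 2. The shares of array and of genotype in this were not tested. ATF3 KO replicate 4 was the lowest of the 8 arrays for 6 receptors, with a median deviation of -0.27 from each receptor's own mean. ATF3 KO replicate 3 was above that mean for 9 of the 10 and the highest array for 4. WT replicate 2 was also the highest for 4, and WT replicate 4 was above the mean for all 10. The SD was larger in ATF3 KO than in WT for 9 of the 10 receptors, Ccr1 being the exception. C3ar1 ran the other way from the bright receptors: it was highest on ATF3 KO replicate 4 and lowest on WT replicate 2, where 4 other receptors were highest. These deviations share the scaling and the depth of signal of each array, and their part in the pattern was not tested.

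**Figure D3:**
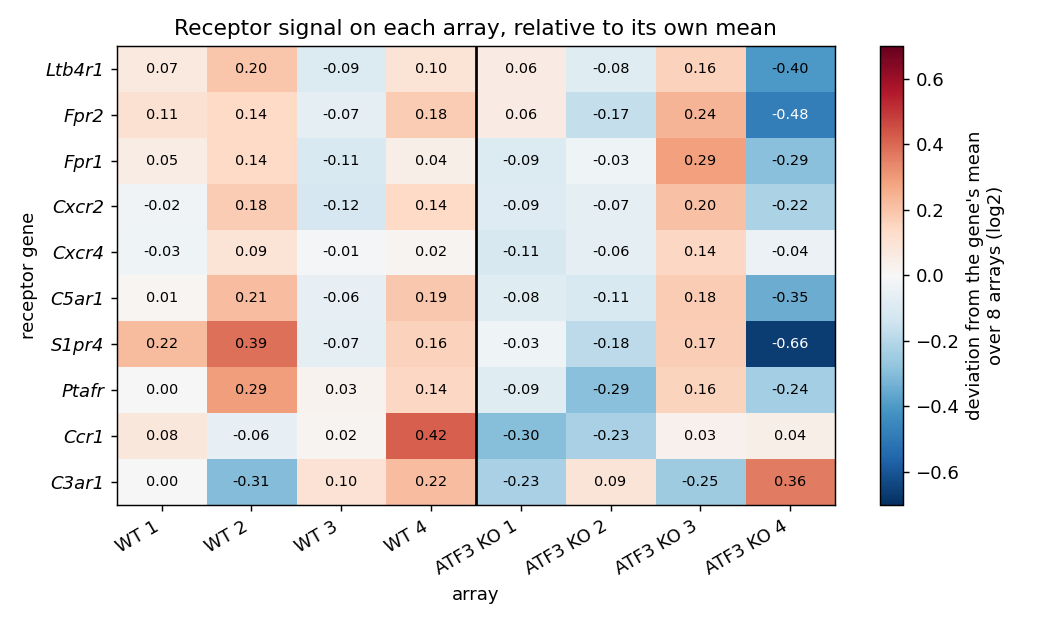
Deviation of each receptor from its own mean over the 8 arrays (colour and printed value, log2), with WT arrays left and ATF3 KO arrays right of the black line. ATF3 KO replicate 4 is the lowest array for 6 receptors, down to -0.66 for S1pr4, while C3ar1 is highest there, at 0.36.

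The receptor results were recomputed under 20 alternatives of processing or with 1 array left out. Of these 200 tests, 0 passed limma's threshold and 8 had an unadjusted p under 0.05, namely 4 for S1pr4, 2 for Ccr1, 1 for Ltb4r1 and 1 for Ptafr. S1pr4 and Ccr1 lay below the median of all genes in all 20. Fpr2, C5ar1 and Ptafr did so in 19 and Ltb4r1 in 18, against 5 for Cxcr2, 3 each for Fpr1 and C3ar1, and 2 for Cxcr4. Some alternatives cannot move these relative values and repeat the main ones. They are median scaling, the percentile over detected probes, trend and robust variances, the replicate block and the adjusted p under 0.1. The counts are therefore not over 20 separate checks.

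**Figure D4:**
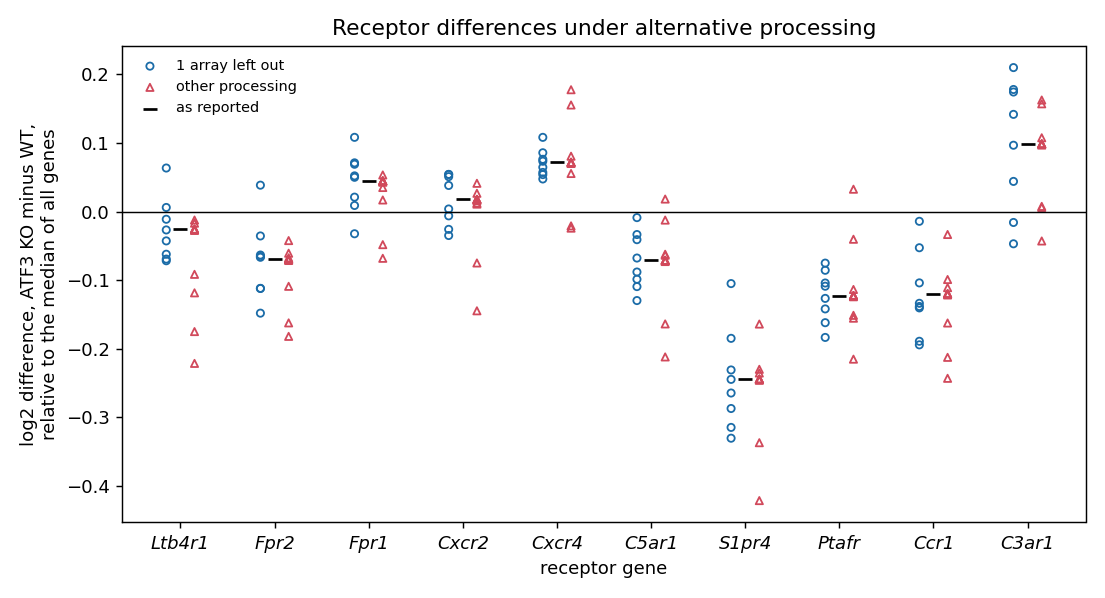
Log2 difference of each receptor, ATF3 KO minus WT, relative to the median of all genes (vertical axis), as reported (black dash), with each of the 8 arrays left out (blue circles) and with other processing (red triangles). S1pr4 and Ccr1 stay below 0 throughout, S1pr4 between -0.42 and -0.11, while the other receptors fall on both sides of 0.

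The genes whose signal followed Cxcr2 most closely over the 8 arrays, among 12545 with a gene name, were Mocs3 (Pearson's r = 0.972), Tfe3 (0.968), Rbpms (0.963), Cdc42se1 (0.962) and C5ar1 (0.959). For Cxcr4 they were Ctdsp1 (0.974), Polr2c (0.965), Sun2 (0.959), Top1 (0.959) and Efcab14 (0.959). None of these 10 passed limma's threshold between the genotypes, and their adjusted p ran from 0.375 to 0.803. This is no separate result, since genes picked for following Cxcr2 or Cxcr4 over the same arrays largely share its genotype difference. C5ar1 is also itself a receptor tested above. The correlations are descriptions: they were the highest of a large search over few arrays that share 1 scaling, and 152 genes had r over 0.9 with Cxcr2 and 23 with Cxcr4.

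Other genes of the pathway were read from the same fit. Of 37 listed further leukocyte receptors 29 were measured, of which 1 rose, where 0.367% of all genes did, and 0 fell. It was Ccr7, the receptor that guides dendritic cells and lymphocytes to lymph nodes (0.52 ± 0.19 for WT, 1.46 ± 0.30 for ATF3 KO, SD, n = 4, limma adjusted p = 0.0495). Its call was lost in 10 of 20 alternatives, over which limma's adjusted p ran from 0.0117 to 0.163. The median of these 29 lay 0.01 above that of all genes. At an unadjusted limma p under 0.05, 4 were higher and 7 were lower, where 23.9% of all genes had such a p. The 4 higher were Ccr7, Cxcr6, Cxcr5 and Ccr6. Besides Ccr7, the 3 with the smallest p were all lower. The UDP receptor gene P2ry6 read 1.02 ± 0.08 and 0.62 ± 0.08 (limma adjusted p = 0.0956), the adenosine receptor gene Adora2a -2.02 ± 0.18 and -2.59 ± 0.27 (limma adjusted p = 0.119), and the prostaglandin E2 receptor gene Ptger4 0.38 ± 0.17 and 0.05 ± 0.08 (limma adjusted p = 0.151), in WT and ATF3 KO in turn.

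Of 26 listed ligands and ligand-making enzymes, 22 were measured and 0 passed, with a median 0.02 above that of all genes. At an unadjusted limma p under 0.05, 1 was higher and 5 were lower, so 6 of 22, where 23.9% of all genes had such a p and 65.5% were lower at any p. Cxcl12, the ligand of CXCR4, read 5.68 ± 0.23 in WT and 4.99 ± 0.26 in ATF3 KO (limma adjusted p = 0.0955). Ccl3, a ligand of CCR1, read 2.46 ± 0.09 and 1.89 ± 0.32 (limma adjusted p = 0.122), and Ccl4 read 2.19 ± 0.18 and 1.56 ± 0.34 (limma adjusted p = 0.122). These 3 were named for their small p. Over the list, 4 of the 22 had groups without overlap, where 15.1% of all genes did. The CXCR2 ligand genes Cxcl1, Cxcl3 and Cxcl5 were not well above background on enough arrays to be tested.

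Of 26 listed regulators and proximal signalling genes, 25 were measured and 0 passed, with a median -0.07 relative to all genes and 4 at an unadjusted limma p under 0.05, where 23.9% of all genes had one. All 4 were lower, as were 65.5% of all genes at any p. The receptor kinase gene Grk3 read 0.18 ± 0.12 in WT and -0.11 ± 0.09 in ATF3 KO (limma adjusted p = 0.156). The beta-arrestin gene Arrb1, whose product uncouples and internalises such receptors, read 6.02 ± 0.06 and 5.71 ± 0.18 (limma adjusted p = 0.161). Gnaq, a G protein alpha subunit, read 2.92 ± 0.06 and 2.65 ± 0.15 (limma adjusted p = 0.177).

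Several of these receptors are also made by cells other than neutrophils, and in sorted bulk RNA fewer cells of a type and less RNA per cell cannot be told apart. The summed signal of the 12 B lineage markers was between 5.75 and 6.29 in WT and between 6.75 and 6.93 in ATF3 KO. These groups did not overlap. The brightest marker by mean was Cd79b for WT (4.53, against 4.86 for ATF3 KO). For ATF3 KO it was Jchain, which read 5.50 ± 0.24 there against 3.69 ± 0.82 for WT (limma adjusted p = 0.067). Its log2 difference, 1.81, was the largest of the 12, and its share of the sum was not tested. At an unadjusted limma p under 0.05, 9 of the 12 were higher and 0 lower, where 23.9% of all genes had such a p. Cd79a, a defining component of the B-cell receptor, was at -1.17 in WT and -0.88 in ATF3 KO. The 10 measured monocyte and macrophage markers summed to between 7.43 and 7.62 in WT and between 7.17 and 7.52 in ATF3 KO. Csf1r, at 7.12 in WT and 6.96 in ATF3 KO, made up most of that sum. The 6 eosinophil markers summed to between 4.65 and 5.17 in WT and between 5.03 and 5.75 in ATF3 KO (Prg2 brightest). Of these markers, 4 were higher and 1 was lower at an unadjusted limma p under 0.05. Of all genes, 23.9% had such a p in either direction. The lower one was Siglecf, by -0.42, and Ccr3 also read lower, by -0.24. The 6 megakaryocyte and platelet markers summed to between 4.52 and 5.13 in WT and between 4.66 and 6.08 in ATF3 KO (Pf4 brightest). The 5 basophil and mast cell markers summed to between 2.02 and 2.24 in WT and between 1.85 and 2.10 in ATF3 KO (Kit brightest). In the same order, the 5 T and NK cell markers summed to between 4.35 and 4.53 and between 3.95 and 4.41 (Cd3d brightest). The 6 dendritic cell markers summed to between 8.55 and 8.95 and between 9.002 and 9.56, so the groups did not overlap. That sum is nearly all Siglech, at 8.55 in WT and 8.95 in ATF3 KO, since the next marker, H2-Ab1, read 5.37 and 5.65. Of the 6, 4 had groups without overlap, all higher, where 15.1% of all genes had such groups in either direction. At an unadjusted limma p under 0.05, 3 were higher and 1 was lower, where 23.9% of all genes had such a p. The lower one was Zbtb46, by -0.45 (limma adjusted p = 0.136), the 1 dendritic cell marker of the 6 below the median of all genes. Of all the listed cell type markers 1 passed limma's threshold, the basophil and mast cell transcription factor gene Gata2. It read -2.34 ± 0.19 (SD, n = 4) for WT and -1.59 ± 0.16 for ATF3 KO (limma adjusted p = 0.0495), and the groups did not overlap. Every other measured gene of its list read lower in ATF3 KO. The brightest, Kit, differed by -0.30 (limma adjusted p = 0.16), Mcpt8 by -0.24, Fcer1a by -0.16 and Cpa3 by -0.05. Gata2's call was lost in 14 of 20 alternatives, with an adjusted p from 0.0282 to 0.168. The part of these markers in the receptor values was not tested.

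Cxcr2 is known to rise and Cxcr4 to fall as neutrophils mature, so markers of maturity were read beside them. Of 6 markers of early precursors and 10 of late neutrophils, 0 passed limma's threshold, with medians 0.05 and 0.08 above that of all genes. Of the early markers 0 and of the late markers 2 had an unadjusted p under 0.05, where 23.9% of all genes did, and these went opposite ways, Csf3r by 0.31 and the iron exporter gene Slc40a1 by -0.30. The median of the 11 measured general neutrophil markers was 0.42 higher than that of all genes, with 0 past the threshold and 6 at an unadjusted p under 0.05, all higher, among them S100a8 (10.3 ± 0.18 in WT, 10.6 ± 0.19 in ATF3 KO) and Csf3r (8.72 ± 0.12 and 9.03 ± 0.14). Csf3r, Mmp8, Mmp9 and Retnlg were on both the general and the late list, so these lists are not separate readings. Mmp9 differed by -0.27 (limma adjusted p = 0.302), the 1 general marker of the 11 below the median of all genes. The receptors had a median log2 difference of -0.05 once the median of all genes was taken off. The difference between the receptors and the marker lists was not tested.

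The 250 bases before each start site, from RefSeq on GRCm38.p6, were searched on both strands for motifs that ATF3 or its partners are known to bind. The letters were TGACGTCA for the CRE, which is its own reverse complement, TGANTCA for the AP-1 site, and TGATGNAA for the C/EBP-ATF element. All 10 receptors had an entry. The CRE was in 0 of the 10, and in 1.55% of all 32851 windows of this length. The AP-1 letters were in C3ar1 alone, and in 6.75% of all windows. The C/EBP-ATF letters were in Ptafr alone, and in 3.45% of all windows. No match overlapped another in these windows. The windows of both genes are shown with the match in capitals, and that of Cxcr2, with no match, beside them. A match describes these letters only, and neither gene passed the test between the genotypes.
C3ar1, chr6:122856158-122856407, minus strand: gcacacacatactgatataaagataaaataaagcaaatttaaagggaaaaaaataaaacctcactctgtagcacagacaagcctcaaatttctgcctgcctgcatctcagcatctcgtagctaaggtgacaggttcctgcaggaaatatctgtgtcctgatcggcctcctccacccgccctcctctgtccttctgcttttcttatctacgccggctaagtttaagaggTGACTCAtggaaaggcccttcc
Ptafr, chr4:132563817-132564066, plus strand: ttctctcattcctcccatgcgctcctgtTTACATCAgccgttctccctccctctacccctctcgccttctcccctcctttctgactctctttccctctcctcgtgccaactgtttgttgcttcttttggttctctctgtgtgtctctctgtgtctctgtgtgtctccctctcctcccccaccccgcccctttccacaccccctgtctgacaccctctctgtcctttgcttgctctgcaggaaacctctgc
Cxcr2, chr1:74153744-74153993, plus strand: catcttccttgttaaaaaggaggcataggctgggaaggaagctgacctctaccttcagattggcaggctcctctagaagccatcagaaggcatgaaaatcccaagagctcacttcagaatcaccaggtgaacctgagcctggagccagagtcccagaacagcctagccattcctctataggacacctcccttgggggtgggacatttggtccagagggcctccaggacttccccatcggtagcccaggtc
The AP-1 letters of C3ar1 begin 22 bases before its start site, and the match in Ptafr, on the reverse strand, begins 222 bases before its start site.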

How the data were processed

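Per the labels' protocols, Cy3-labelled RNA was measured on Agilent mouse arrays in 1 colour. The deposited scanner files give linear intensity per spot. The software was Agilent Feature Extraction, for which the file headers name version 10.9.1.1 and the submitters' processing notes 10.10. Per the file headers, the processed intensity is background-subtracted and detrended within the array, with no scaling between arrays. The flag for a signal well above background is the authors' scanner output, 1 other value per spot. The deposited table of the series holds log2 values of unstated scale, centring and direction. Its columns followed the log2 median signal of their own array (lowest r across features 0.998), with medians from 6.15 to 6.17, so they appear to be scaled between arrays with the background left in. This table served only as an alternative.

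Control spots and outlier-flagged spots (98 to 159 per array) were left out, and no spot was saturated. Levels are log2 of the processed signal, less the array's own 75th percentile, set over 55681 probes, of whose values 50.02% were above background. Probes above background on at least 4 of 8 arrays were kept (27948), and the brightest probe stood for a gene. Symbols came from RefSeq transcripts of GRCm38.p6, which named 27235 probes and left 28446 without one; the file headers name mm9, and no coordinate was moved between builds. Groups and replicate numbers came from the sample titles. The test was limma's (version 3.58.1, R 4.3.3, 1 term, genotype). The p-values had Benjamini-Hochberg adjustment over all 21251 genes, and the threshold was 0.05. The limma step was tested on simulated data. The array's own error estimate for a receptor spot was between 10% and 16.8% of its signal, and precision is limited by how many arrays there are.

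The receptors, the marker and pathway lists and the rule for named genes were chosen with earlier results of these data known. Named were all 10 receptors. From each pathway list, the genes past the threshold and the 3 with the smallest p were named (those not among them only counted). Also named were the 5 genes most correlated with Cxcr2 and with Cxcr4, Atf3, and the brightest marker of each list of another cell type. Added after their values were seen were Cd79a, Jchain, S100a8, Csf3r, Mmp8, Mmp9, Retnlg, Slc40a1 and Gata2. So were Siglecf, Ccr3, Zbtb46, H2-Ab1, Cxcr5, Cxcr6, Ccr6, Mcpt8, Fcer1a and Cpa3. Older symbols of Grk2 and Grk3 were merged with them. The labels do not say that the replicate numbers pair WT with ATF3 KO samples, and the test did not pair them. The r of deviations across genes between same-numbered samples was 0.19, -0.13, -0.27 and 0.18. With 4 samples per group these values cannot show whether the samples were paired. Normexp was planned on the mean signal, which the files used here do not have, and the median signal took its place.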

Additional observations from a re-analysis of the deposited data

How the results depend on the processing

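The number of receptors past limma's threshold was 0 in each of the 20 alternatives, which were normexp background correction, quantile normalization, median scaling, the percentile over probes above background on all arrays, 2 other filters on dim probes, the mean of a gene's probes, trend and robust variances, array weights, the deposited log2 table, a replicate block, an adjusted p under 0.1 and each of the 8 arrays left out. The order of the receptors by mean signal was the same in the 16 alternatives in which it was recomputed. With the replicate number as a block, although the labels state no pairing, the count was 0 and 72 genes passed against 95. The median receptor difference relative to all genes was -0.05, as it had to be. Blocks of 1 WT and 1 ATF3 KO array leave every log2 difference unchanged. Of 200 receptor tests, 184 kept their direction and 16 turned it. Those kept include settings that left every receptor's log2 difference as it was. They were the 2 other filters, the mean of a gene's probes, trend and robust variances, the block and the adjusted p under 0.1. With 1 probe per gene and 1 WT and 1 ATF3 KO array per block, these could not turn a direction. With the percentile over probes above background on all arrays, the difference turned to 0.0616 for Cxcr2, 0.116 for Cxcr4, 0.0883 for Fpr1, 0.143 for C3ar1 and 0.0181 for Ltb4r1. That scaling moved the median of all genes from -0.11 to 0.04. With the deposited log2 table it turned to 0.15 for Cxcr4, 0.0175 for Fpr1 and 0.005 for Ptafr, and with quantile normalization to 0.11 for Cxcr4. With 1 array left out, Fpr1 ran from -0.17, without ATF3 KO replicate 3, to 0.0234, without ATF3 KO replicate 4, and C3ar1 from -0.132, without ATF3 KO replicate 4, to 0.0717, without ATF3 KO replicate 3. For C3ar1 it turned to 0.11 with normexp, to 0.0371 with array weights, and also without WT replicate 3, WT replicate 4 or ATF3 KO replicate 1. The cause was not tested. With 1 array left out, the median receptor difference relative to all genes ran from -0.10 to 0.01, the highest value being that without ATF3 KO replicate 4, and with the other alternatives from -0.15 to -0.0025. The number of all genes called ran from 9, without WT replicate 1, to 403 at an adjusted p under 0.1. It was 10 with no filter on dim probes, 13 without WT replicate 3, 20 without ATF3 KO replicate 2, 29 without ATF3 KO replicate 4, 31 with quantile normalization, 36 without WT replicate 2 and 44 with the percentile over detected probes. It was 59 without WT replicate 4. It was 149 with the deposited table, 192 with trend and robust variances, 212 with array weights, 217 with median scaling, 234 without ATF3 KO replicate 3 and 250 with normexp. C3ar1 and Ccr1, the dimmest probes, lay nearest to background.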
